A study of Rattus norvegicus with 12 samples.

Results

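The genes described here build synaptic vesicles and secretory granules, the packets in which neurons store and release transmitters and peptides. They were chosen by symbol: the families Syt, Stx, Stxbp, Vamp, Snap, Rab3, Cplx, Scg and Scamp, where the family name is followed by its member number or letter, together with the Sv2 and Syn genes and Syp, Chga, Chgb, Nsf, Napa, Napb and Sh3gl2. Of 10411 genes with a probe set of their own on the array, 64 were members, and the rule itself uses no measured level. Syt1 and Napb were not analysed here. Where a gene had more than 1 probe set, as 20 members did, the brightest on average over all arrays stood for it.

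A synaptic vesicle is filled with transmitter, held in a reserve pool by synapsins and marked for docking at the membrane by Rab3 proteins. It is fused by SNARE proteins (Vamp on the vesicle, syntaxin and Snap25 on the cell membrane) when a synaptotagmin binds calcium. Nsf and its adaptor Napa then pull the spent SNARE complexes apart, and endophilin and its partners help to recover the membrane. Dense-core granules, which carry neuropeptides, are packed by the granins (Chga, Chgb and the secretogranins). Sensory neurons make the proteins of both kinds of packet in the cell body and ship these proteins along the axon.

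The tissue was dorsal root ganglion, where the cell bodies of sensory neurons sit, taken from adult male Sprague Dawley rats weighing 180 to 300 g. The rats belonged to 2 genetic sub-lines, High Pain (HP) and Low Pain (LP). Spinal nerve ligation (SNL, a tie around the nerve used to model neuropathic pain) was made at L4 and L5, and the L4/L5 ganglia were collected after 3 days. Controls of each line had sham surgery that spared the nerve. Each of the 4 combinations of line and surgery had 3 Affymetrix arrays. A whole ganglion also holds satellite glia, Schwann cells and macrophages, and in such bulk RNA fewer cells of a type and less RNA per cell cannot be told apart. Nothing in the labels says that replicates came from separate animals, and the p-values therefore reflect the spread among these samples alone, part of which may be technical.

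Array medians lay between 278.4 and 313.2 signal units, and correlations of log2 signals within a group between 0.941 and 0.965. The number of arrays limits the precision. Signals are on the authors' linear scale and are not comparable between genes. Differences are SNL minus sham in log2(signal + 1), given ± SE, and understate changes of dim genes. A gene was called when its adjusted p (limma, Benjamini-Hochberg over all 10411 genes) was under 0.05, and SNL and sham groups overlapped unless every array of one lay above every array of the other.

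After ligation, part of this machinery was lower in both lines and a few members were higher. In HP, 10 of 64 members fell (15.6%, against 6.61% of all genes) and 5 rose (7.81%, against 7.02%). In LP, 14 fell (21.9%, against 6.79%) and 5 rose (7.81%, against 7.66%). The share that rose was thus near that of all genes. The median difference of the members was -0.11 in HP and -0.23 in LP, beside -0.00077 and 0.02 over all genes. The members that fell in both lines were the granins Chga and Scg2, the vesicle GTPases Rab3a and Rab3c, the vesicle proteins Sv2b and Syn1, the calcium sensor Syt9, the vesicle SNARE Vamp1 and the ATPase Nsf, 9 in all. Sh3gl2 was called lower in HP alone, and Chgb, Scg5, Syt3, Napa and Scamp3 in LP alone. The 4 that rose in both lines were Syt4, Snap23, Stx4 and Vamp5, with Syt17 called higher in HP alone and Scamp2 in LP alone. Calls in 1 line alone are not differences between the lines, which are tested further on. The remaining 43 members were called in neither line. In HP the count that fell was 6 without each of HP sham replicates 1, 2 and 3. The count that rose in HP was 2 without HP sham replicate 1, HP sham replicate 2 or HP SNL replicate 2, and 3 when HP sham replicate 3 or HP SNL replicate 1 or 3 was the array omitted.

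**Figure D1:**
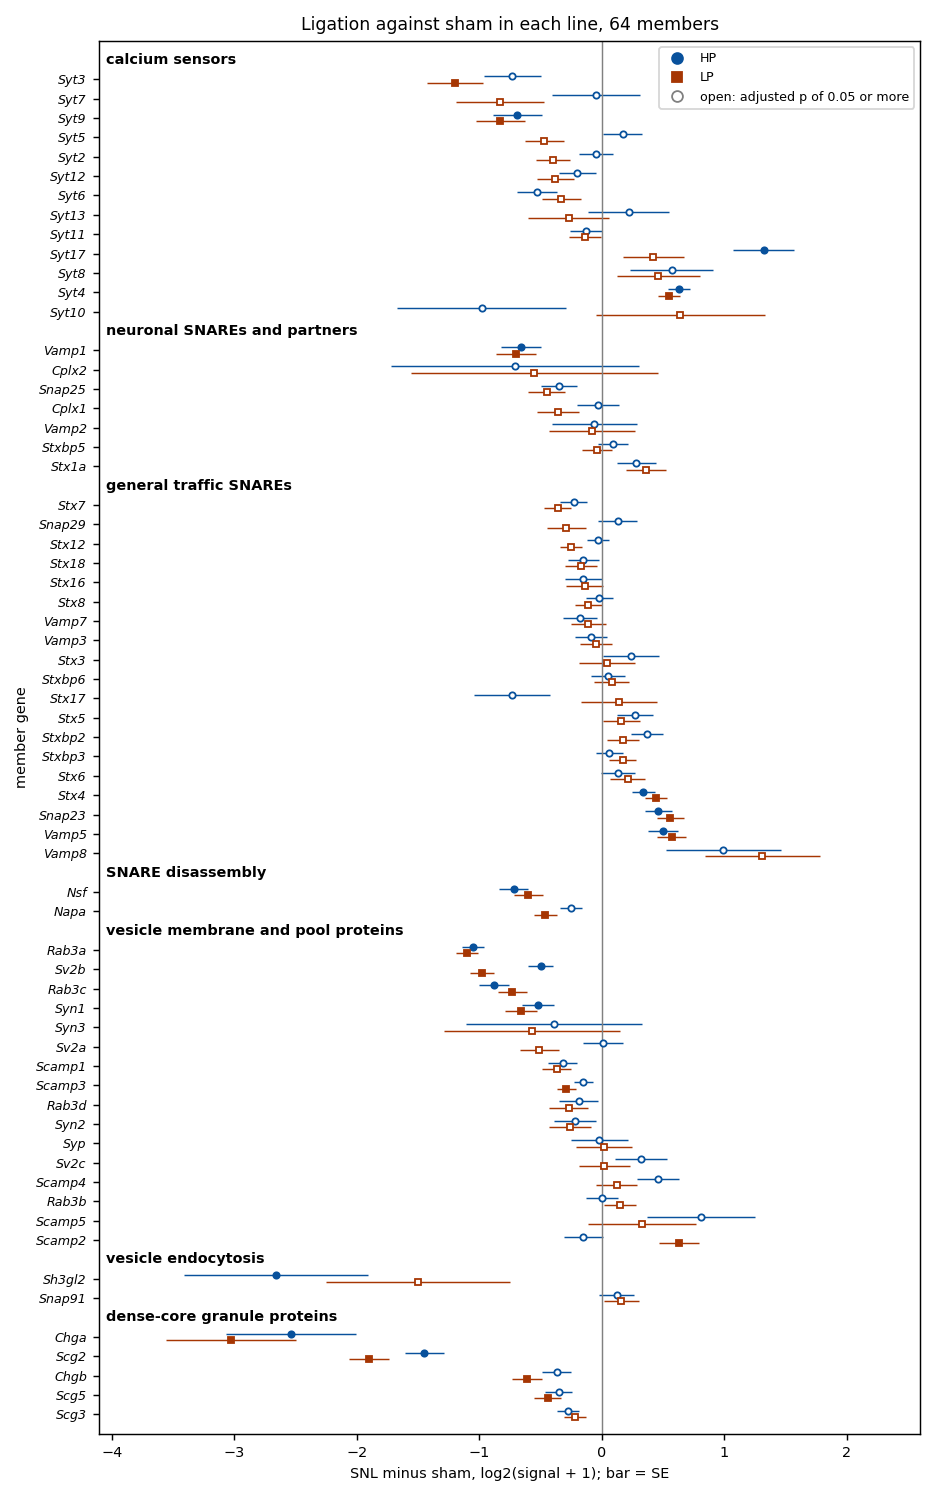
Difference in log2(signal + 1) between SNL and sham for all 64 members, grouped by role; points are limma estimates for HP and LP, bars are SE (n = 3 arrays per group), and open points mark an adjusted p of 0.05 or more. The dense-core granule genes lie left of 0 in both lines, with Chga at -2.54 in HP and -3.03 in LP, and the filled points of the general traffic SNAREs (Stx4, Snap23 and Vamp5) lie right of it.

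Counting members whose SNL and sham arrays did not overlap gave a like split. In HP, 21 members were lower on every SNL array (32.8%, against 17.1% of all genes) and 9 were higher on every one (14.1%, against 17.2%). In LP, 25 were lower without overlap (39.1%, against 14.7%) and 7 were higher (10.9%, against 16.5%). By role, 0 of 19 general traffic SNAREs fell in either line, where 6.61% and 6.79% of all genes did, and 4 of 16 vesicle membrane and pool proteins fell in HP (25%) and 5 of 16 in LP (31.2%). Whether the roles differ was not tested. Of those 19 SNAREs, 5 in HP and 6 in LP had an unadjusted limma p under 0.05 in either direction, as had 26.4% and 27.2% of all genes.

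The start regions of the members were searched for 4 known regulatory motifs, on both strands, in the 250 bases before the start site that RefSeq gives in the rat assembly GRCr8. Of 64 members, 52 had an entry. The cAMP response element TGACGTCA, the binding sequence of the factor CREB, was present in 5 of them (9.62%), namely Napa, Scg2, Sh3gl2, Syn1 and Vamp1, against 2.65% of 8610 genes on the array and 1.7% of all 27457 entries. All 5 were among the 14 members with an entry that were called lower in at least 1 line, and 0 were among the other 38. The share with the element among all array genes called lower was not counted, so this split has no background beside it. The motifs were chosen with the expression results known, so these shares are a description. The printed sequences show the element in capitals in the 3 members whose printed window lies outside the annotated gene; in Napa and Scg2 the annotated gene reaches further upstream, and no letters are shown. Each reads 5′ to 3′ on the gene's strand and ends at the base before the start site.
Syn1 (chrX:3725535-3725744, + strand): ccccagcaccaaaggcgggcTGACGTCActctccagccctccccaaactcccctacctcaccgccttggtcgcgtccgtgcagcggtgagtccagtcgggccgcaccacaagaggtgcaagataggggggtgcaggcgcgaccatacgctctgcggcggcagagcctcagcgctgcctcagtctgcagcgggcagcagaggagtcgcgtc
Vamp1 (chr4:159698744-159698893, + strand): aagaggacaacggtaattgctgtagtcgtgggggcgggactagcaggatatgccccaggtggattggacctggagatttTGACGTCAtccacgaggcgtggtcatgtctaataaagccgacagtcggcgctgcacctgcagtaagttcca
Sh3gl2 (chr5:104699120-104699269, + strand): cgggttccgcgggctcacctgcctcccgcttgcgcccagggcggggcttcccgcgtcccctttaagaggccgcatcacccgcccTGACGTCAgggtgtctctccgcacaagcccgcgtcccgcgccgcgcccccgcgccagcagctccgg
The element begins 190 bases before the start in Syn1, 71 in Vamp1 and 66 in Sh3gl2. The E-box CACGTG was found in 8 of 52 members (15.4%, against 7.91% of array genes and 5.79% of all entries), 3 of them called lower and 5 others. The AP-1 motif TGANTCA was in 0 of 52 (4.89% of array genes and 6.36% of all entries). The core of the neuron-restrictive silencer element was in Scamp5 alone (1.92%, against 0.0697% of array genes and 0.051% of all entries). A match is a string of letters, not a shown site.

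The 5 dense-core granule genes had lower signals on every SNL array than on every sham array, in both lines. Chga encodes chromogranin A, an acidic granule matrix protein. Its signals were 685.4, 653.4 and 700.7 on the HP sham arrays against 137.8, 63.8 and 177.5 on the HP SNL arrays. In LP they were 579.0, 509.8 and 567.2 after sham against 108.8, 24.7 and 108.5 after SNL. Replicate 2 was the lowest SNL array in each line, and every SNL array was below every sham array of its line. Chga fell by 2.54 ± 0.53 in HP (5.81-fold lower, adjusted p = 0.0112) and fell by 3.03 ± 0.53 in LP (8.17-fold lower, adjusted p = 0.00401). With the beta-actin 3′ to 5′ ratio of each array as a covariate the HP value was -2.63 with adjusted p = 0.0518.

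Scg2, secretogranin II, is the precursor of the peptide secretoneurin. Its HP signals were 2046.0, 2067.5 and 1967.0 after sham and 971.5, 690.9 and 605.7 after SNL. Its LP signals were 1856.7, 1975.3 and 2050.5 after sham and 545.8, 470.4 and 560.4 after SNL. All sham arrays of both lines lay close together, and every SNL array was far below them. Scg2 fell by 1.45 ± 0.16 in HP (2.73-fold lower, adjusted p = 0.000435) and fell by 1.90 ± 0.16 in LP (3.73-fold lower, adjusted p = 8.7e-05), and both calls held in all 22 alternatives.

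Chgb, Scg5 and Scg3 moved less. Chgb encodes chromogranin B, the partner of chromogranin A in the granule core. Its signals were 1158.7, 1291.0 and 1053.8 after sham and 895.8, 984.9 and 832.8 after SNL in HP, and 1193.9, 1064.7 and 1133.1 against 709.7, 834.8 and 677.7 in LP. The groups did not overlap in either line, and the call passed in LP (fell by 0.61 ± 0.12, adjusted p = 0.0065) but not in HP (-0.37 ± 0.12, adjusted p = 0.068). Scg5 encodes 7B2, the chaperone of the prohormone convertase Pcsk2. It fell in LP by 0.44 ± 0.11 (adjusted p = 0.0227) and had -0.35 ± 0.11 in HP (adjusted p = 0.0626). The LP call of Scg5 was lost without LP sham replicate 1 (adjusted p = 0.0734), LP sham replicate 2 (0.0813), LP SNL replicate 2 (0.0737) or LP SNL replicate 3 (0.057), and HP passed without LP sham replicate 3 (0.0376). Scg3, a sorting receptor that binds chromogranin A, was called in neither line (-0.28 ± 0.09 and -0.22 ± 0.09, adjusted p = 0.0799 and 0.16), though its groups did not overlap.

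The Rab3 GTPases mark vesicles for docking and regulate how many are released. Rab3a had signals of 2058.4, 2228.1 and 2273.5 after sham and 1116.6, 1120.5 and 942.8 after SNL in HP. In LP it had 2100.2, 2232.4 and 2157.8 after sham and 1039.0, 1009.6 and 986.6 after SNL. Replicate arrays lay close together, and the SNL levels were 2.07-fold lower in HP and 2.14-fold lower in LP. Rab3a fell by 1.05 ± 0.09 in HP (adjusted p = 0.000183) and fell by 1.10 ± 0.09 in LP (adjusted p = 0.000106).

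Rab3c was lower in both lines. Its signals were 235.6, 229.2 and 212.6 after sham and 142.0, 104.4 and 122.7 after SNL in HP, and 195.4, 210.1 and 230.1 against 126.8, 133.1 and 122.4 in LP. Every SNL array was below every sham array, and Rab3c fell by 0.88 ± 0.12 in HP (adjusted p = 0.00128) and fell by 0.73 ± 0.12 in LP (adjusted p = 0.00297). The other members of the family, Rab3b (0.15 ± 0.13 in LP) and Rab3d (-0.19 ± 0.16 in HP and -0.27 ± 0.16 in LP), were not called in either line. The calls of Rab3a and Rab3c held in all 22 alternatives.

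Sv2 proteins are glycoproteins of the vesicle membrane that prime vesicles for calcium-triggered release. Sv2b signals were 1510.7, 1182.6 and 1382.1 after sham and 1004.1, 982.1 and 893.5 after SNL in HP. In LP they were 1535.1, 1660.8 and 1522.2 after sham and 816.6, 791.3 and 778.0 after SNL. The groups did not overlap, and the LP SNL arrays were the lowest of all. Sv2b fell by 0.50 ± 0.10 in HP (adjusted p = 0.0117) and fell by 0.98 ± 0.10 in LP (adjusted p = 0.00025). Of its other probe sets, the brighter gave -1.29 and -1.71 (adjusted p = 0.00926 and 0.00179, for other probe sets always over all named probe sets) and the dimmer -0.71 and 0.18. With the mean of the 3 probe sets the adjusted p was 0.0694 in HP and 0.0625 in LP. Its relative Sv2a had 0.01 ± 0.16 in HP and -0.51 ± 0.16 in LP (adjusted p = 0.0535), with no overlap in LP, and Sv2c was not called.

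Synapsins coat vesicles and hold them in the reserve pool. Syn1 signals were 2396.7, 2319.9 and 2351.3 after sham and 1718.0, 1765.9 and 1463.9 after SNL in HP, and 2616.4, 2140.9 and 1856.0 against 1493.8, 1262.9 and 1402.7 in LP. The spread among the LP sham arrays was wider than among the HP sham arrays, and neither line had an overlap. Syn1 fell by 0.52 ± 0.13 in HP (adjusted p = 0.0291) and fell by 0.66 ± 0.13 in LP (adjusted p = 0.00873). In HP the call was lost without HP sham replicate 1 (adjusted p = 0.0879), 2 (0.0679) or 3 (0.0785), as well as HP SNL replicate 1 (0.0553) or 3 (0.102). The second Syn1 probe set gave -0.74 ± 0.11 and -0.75 ± 0.11. Syn2 was not called from the probe set used (-0.22 ± 0.17 and -0.26 ± 0.17), while its second probe set was lower in LP (-0.44, adjusted p = 0.00491).

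**Figure D2:**
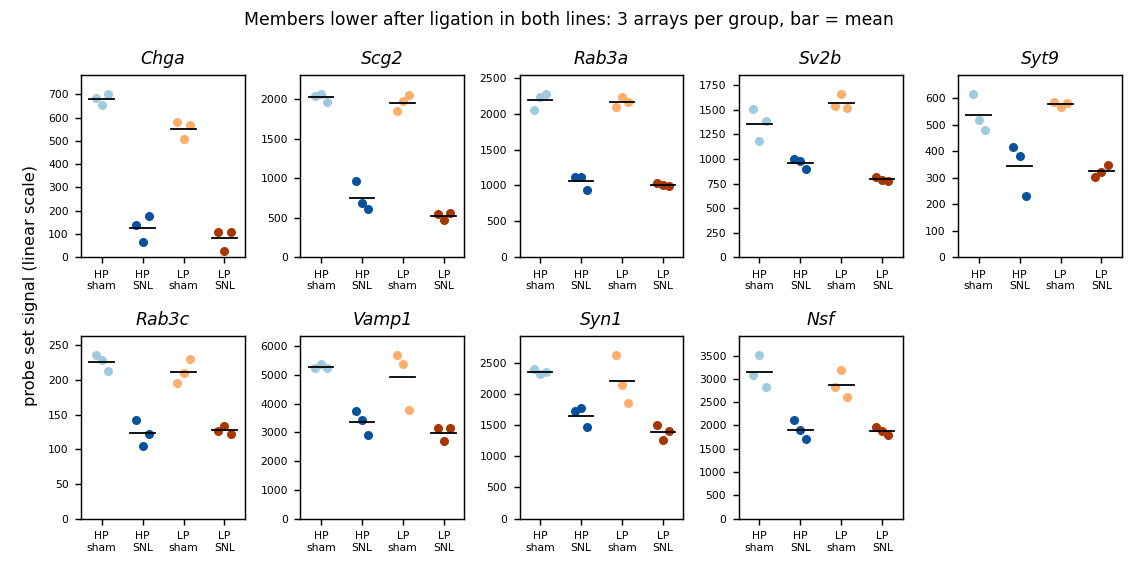
Probe set signal on the authors' linear scale on each array for the members called lower in both lines; points are the 3 arrays of each line and surgery, and bars mark group means. In each panel every SNL array lies below every sham array of its line, for instance 942.8 to 1120.5 against 2058.4 to 2273.5 for Rab3a in HP.

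Syp was not called in either line. It encodes synaptophysin, a defining protein of the synaptic vesicle. Its differences were -0.02 ± 0.23 in HP and 0.02 ± 0.23 in LP, and its groups overlapped in both lines. Scamp genes encode carrier membrane proteins of the recycling pathway. Scamp3 was called lower in LP (-0.29 ± 0.08, adjusted p = 0.0466), a call lost without any array but HP SNL replicate 1, with adjusted p from 0.0594 to 0.136. Scamp1 had -0.32 ± 0.12 in HP and -0.37 ± 0.12 in LP (adjusted p = 0.107 and 0.0595), and its second probe set passed in both lines (-0.42 and -0.83, adjusted p = 0.0331 and 0.00114). Scamp2 is given with the comparison of the lines.

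Among the 7 neuronal SNAREs and their partners, Vamp1 was the 1 member called, lower in both lines (14.3%). Of all genes 6.61% fell in HP and 6.79% in LP, and with so few genes this count is near those shares. Vamp1, or synaptobrevin 1, is the vesicle SNARE most used by neurons of the spinal cord and brainstem. Its signals were 5223.9, 5394.0 and 5246.1 after sham and 3751.5, 3427.4 and 2920.2 after SNL in HP, and 5675.9, 5362.9 and 3770.8 against 3159.1, 2684.8 and 3135.6 in LP. LP sham replicate 3 was low among its group but still above all LP SNL arrays. Vamp1 fell by 0.66 ± 0.16 in HP (adjusted p = 0.0218) and fell by 0.70 ± 0.16 in LP (adjusted p = 0.0146). This call was lost in HP without HP sham replicate 1 (adjusted p = 0.0628), 2 (0.0623) or 3 (0.0633), as well as HP SNL replicate 2 (0.0556) or 3 (0.0795), and the LP call without LP sham replicate 1 (0.0532) or 2 (0.0542) or LP SNL replicate 2 (0.0514). A dimmer probe set of the gene gave 0.09 in HP and 0.13 in LP, and the remaining one gave -0.57 and -0.67.

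The target SNAREs of the same complex were not called. Snap25 had signals of 5690.4, 5876.6 and 6598.7 after sham and 4841.4, 5112.3 and 4270.1 after SNL in HP, and 6409.7, 5780.6 and 4682.8 against 4385.3, 3368.3 and 4601.1 in LP. No group overlapped, yet the differences of -0.35 ± 0.15 and -0.45 ± 0.15 did not pass (adjusted p = 0.173 and 0.0798). Stx1a had 0.28 ± 0.16 in HP and 0.36 ± 0.16 in LP. Its SNL arrays were all above its sham arrays in HP and overlapped them in LP. The second Stx1a probe set gave 1.38 in HP and 0.94 in LP (adjusted p = 0.192 and 0.384). Vamp2, the vesicle SNARE of most central synapses, had -0.06 ± 0.35 and -0.08 ± 0.35, with overlapping groups and a wide SE. Cplx1 encodes complexin 1, the clamp on the assembled complex, and had -0.03 ± 0.17 and -0.36 ± 0.17.

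Of the 2 genes that take spent SNARE complexes apart, 1 fell in HP (50%) and both fell in LP (100%). Of all genes 6.61% fell in HP and 6.79% in LP, but 2 genes are too few to compare shares. Nsf is the ATPase of that step. Its signals were 3085.0, 3506.5 and 2834.8 after sham and 2116.3, 1899.9 and 1717.7 after SNL in HP, and 2831.9, 3188.5 and 2606.7 against 1963.9, 1889.7 and 1804.3 in LP. Nsf fell by 0.72 ± 0.12 in HP (adjusted p = 0.00379) and fell by 0.60 ± 0.12 in LP (adjusted p = 0.00762), without overlap and in all 22 alternatives. Its other probe sets gave -0.45 and -0.29 in HP, not passing, and -0.60 and -0.23 in LP, where the former passed (adjusted p = 0.0238). Napa, the alpha-SNAP adaptor that recruits Nsf, fell in LP by 0.46 ± 0.09 (adjusted p = 0.00855). In HP it had -0.25 ± 0.09 (adjusted p = 0.104), and 0.0497 without HP SNL replicate 3, whose signal of 2308.9 was close to the lowest HP sham signal of 2324.5.

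Synaptotagmins include the calcium sensors of release, though not every member of the family is one. Of 13 measured, 1 fell (7.69%) and 2 rose (15.4%) in HP while 2 fell (15.4%) and 1 rose (7.69%) in LP. With so few genes these counts are near the shares of all genes, 6.61% and 7.02% in HP and 6.79% and 7.66% in LP. Syt9 is a fast calcium sensor. It had signals of 616.3, 518.6 and 481.6 after sham and 414.6, 382.9 and 231.2 after SNL in HP, and 585.4, 567.6 and 581.5 against 302.9, 321.1 and 349.0 in LP. It fell by 0.69 ± 0.20 in HP (adjusted p = 0.0432) and fell by 0.83 ± 0.20 in LP (adjusted p = 0.0174), without overlap. The HP call was lost without any array but HP SNL replicate 1 (adjusted p from 0.0546 to 0.145), with -0.43 without HP SNL replicate 3. The LP call was lost without LP sham replicate 1 (0.0505) or LP SNL replicate 1 (0.0613).

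Syt3 is a high-affinity calcium sensor. Its signals were 260.2, 260.4 and 254.7 after sham and 177.1, 155.3 and 137.8 after SNL in HP, and 301.2, 208.9 and 424.3 against 142.4, 149.4 and 102.3 in LP. Each SNL array was below each sham array, and the LP sham arrays were widely spread. Syt3 fell in LP by 1.20 ± 0.23 (adjusted p = 0.00744). In HP it had -0.73 ± 0.23 (adjusted p = 0.0717), which passed without LP sham replicate 2 or 3 (0.0301 each).

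Syt4, a synaptotagmin of dense-core granules and Golgi-derived vesicles, rose. Its signals were 2329.6, 2031.9 and 2381.8 after sham and 3373.6, 3656.2 and 3364.3 after SNL in HP, and 2088.4, 2343.0 and 2237.7 against 3081.3, 3281.7 and 3400.5 in LP. The SNL arrays lay well above the sham arrays in both lines. It rose by 0.63 ± 0.09 in HP (adjusted p = 0.00234) and by 0.55 ± 0.09 in LP (adjusted p = 0.0038) in all 22 alternatives, and its second probe set gave 0.94 and 0.79. Syt17, an atypical synaptotagmin, had signals of 55.6, 36.3 and 63.6 after sham and 135.3, 123.8 and 123.2 after SNL in HP. In LP it had 73.7, 132.2 and 103.0 after sham and 154.1, 103.7 and 150.1 after SNL, which overlapped. It was called higher in HP (1.32 ± 0.25, adjusted p = 0.00821) and not in LP (0.42 ± 0.25, adjusted p = 0.343), but its second probe set gave -1.22 in HP (adjusted p = 0.0763) and -0.77 in LP, so its direction is not settled by these probe sets.

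Sh3gl2 encodes endophilin A1, which bends membrane during vesicle recovery. Its signals were 313.1, 367.7 and 337.8 after sham and 213.6, 12.1 and 54.6 after SNL in HP, and 433.9, 364.8 and 355.2 against 147.5, 110.4 and 149.1 in LP. The 3 HP SNL arrays differed widely, and the 12.1 of replicate 2 was under that array's 5th percentile of 13.7, while the LP SNL arrays lay between 110.4 and 149.1. It was called lower in HP (-2.66 ± 0.75, adjusted p = 0.0416) and not in LP (-1.50 ± 0.75, adjusted p = 0.231). In HP the call was lost without any array but HP SNL replicate 1 (adjusted p from 0.0529 to 0.104), with -1.64 without HP SNL replicate 2. The LP value of -1.50 passed without HP SNL replicate 1 (0.0461) or 2 (0.0358). Snap91, the clathrin assembly protein AP180, was not called (0.12 ± 0.14 and 0.16 ± 0.14).

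The members that rose in both lines besides Syt4 were SNAREs outside the neuronal release complex. They were 3 of 19 general traffic SNAREs (15.8% in each line, against 7.02% of all genes in HP and 7.66% in LP). Snap23 is the widely expressed relative of Snap25. Its signals were 242.6, 240.8 and 242.8 after sham and 343.1, 349.2 and 307.9 after SNL in HP, and 228.8, 224.1 and 277.7 against 335.8, 342.9 and 399.3 in LP. It rose by 0.46 ± 0.11 in HP (adjusted p = 0.0221) and by 0.56 ± 0.11 in LP (adjusted p = 0.00762), without overlap. This call was lost in HP without HP sham replicate 1 (adjusted p = 0.0668), 2 (0.0602) or 3 (0.0661), or HP SNL replicate 1 (0.0656) or 2 (0.0754).

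Stx4 is a syntaxin of the cell membrane. Its signals were 551.4, 607.4 and 612.5 after sham and 756.0, 711.0 and 780.1 after SNL in HP, and 502.9, 534.2 and 492.2 against 685.4, 643.4 and 744.4 in LP. All SNL arrays were higher than all sham arrays of their line. It rose by 0.34 ± 0.09 in HP (adjusted p = 0.0322) and by 0.44 ± 0.09 in LP (adjusted p = 0.00966). The HP call was lost without each HP array in turn: without HP sham replicates 1, 2 and 3 the adjusted p was 0.118, 0.062 and 0.0665, and without HP SNL replicates 1, 2 and 3 it was 0.0818, 0.0516 and 0.102.

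Vamp5, a Vamp protein best known from muscle, had signals of 427.6, 474.7 and 560.3 after sham and 670.2, 718.3 and 671.5 after SNL in HP. In LP they were 450.2, 450.0 and 525.6 after sham and 721.8, 737.1 and 649.8 after SNL. The groups did not overlap. It rose by 0.50 ± 0.12 in HP (adjusted p = 0.019) and by 0.57 ± 0.12 in LP (adjusted p = 0.00958). In HP the call was lost without HP sham replicate 1 (adjusted p = 0.0751) or 2 (0.0573) or HP SNL replicate 2 (0.0654) or 3 (0.0507). With the mean of the probe sets of each gene, the adjusted p of Vamp5 was 0.486 in HP and 0.128 in LP, and that of Snap23 was 0.334 and 0.0529.

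Markers of other cells were also examined, and they did not all move alike. Of 8 macrophage markers, 6 rose in both lines, among them Cd68 (1.76 ± 0.23 in HP and 2.00 ± 0.23 in LP). Their summed signal was 3042.0 to 3459.7 on HP sham and 6920.3 to 8071.3 on HP SNL arrays, and 2838.7 to 2969.3 against 6442.5 to 7271.0 in LP, with none at 0. Vamp8, a SNARE of endosomes and blood cell granules, had 0.99 ± 0.47 in HP and 1.31 ± 0.47 in LP (adjusted p = 0.211 and 0.0918). Of the 5 satellite glia markers Glul alone was called, higher in both lines, while Fabp7 had -0.55 ± 0.19 and -0.60 ± 0.19 without overlap (adjusted p = 0.0853 and 0.06), and the list's median was 0.15 in HP and -0.066 in LP. Of the 4 Schwann cell markers Sox10 alone was called, higher in both lines, while Mbp, Pmp22 and S100b were at or below -0.10 in LP, and the list's median was 0.15 in HP and -0.13 in LP. Of the 5 muscle markers, Myh4 and Acta1 fell in HP, while limma called 0 of them in LP (0 at an unadjusted p under 0.05). The part of these cells in the rise of Snap23, Stx4 and Vamp5 was not tested.

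**Figure D3:**
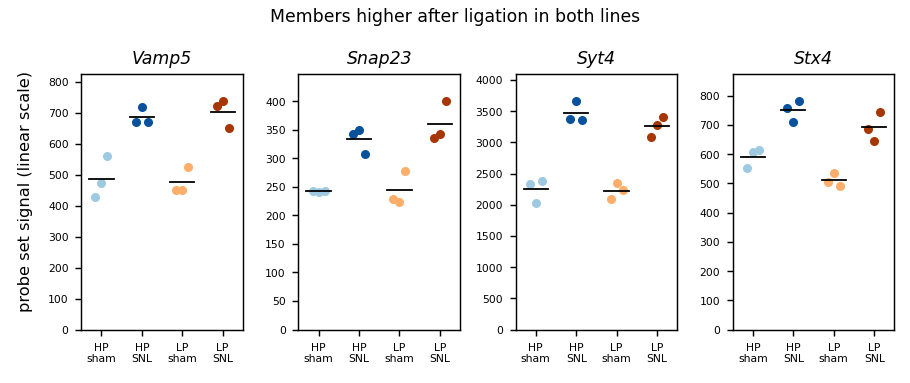
Probe set signal on the authors' linear scale on each array for Vamp5, Snap23, Syt4 and Stx4, called higher in both lines; points are the 3 arrays of each group and bars mark group means. Every SNL array lies above every sham array of its line in each panel, for instance 3081.3 to 3400.5 against 2088.4 to 2343.0 for Syt4 in LP.

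The rest of the release pathway was read from lists of genes outside the member families, of which 69 of 79 were measured. In HP 12 fell (17.4%, against 6.61% of all genes) and 3 rose (4.35%, against 7.02%), and in LP 18 fell (26.1%, against 6.79%) and 2 rose (2.90%, against 7.66%). Among 21 genes of the active zone and vesicle priming, 5 fell in HP (23.8%) and 7 in LP (33.3%), and the others were not called. Those that fell included Lin7b, a scaffold protein (-1.51 ± 0.19 and -1.49 ± 0.19), Apba1, the adaptor protein Mint1 (-1.02 ± 0.16 and -1.29 ± 0.16), and the priming factors Cadps (-0.60 ± 0.09 and -0.76 ± 0.09), Cadps2 (-0.98 ± 0.22 and -0.91 ± 0.22) and Unc13c (-0.80 ± 0.16 in each line). Cadps and Cadps2 encode the CAPS proteins, which prime dense-core granules. Cadps signals were 2946.6, 2916.5 and 2881.5 after sham and 1924.6, 1762.8 and 2105.4 after SNL in HP, and 3113.7, 3049.8 and 3072.3 against 1860.9, 1909.4 and 1689.7 in LP. The LP count that fell was 9 without LP sham replicate 2 and 9 without LP SNL replicate 3, and the HP count that rose was 5 without LP sham replicate 3. The LP count that rose was 1 without LP sham replicate 1 or 3 or any 1 of the 3 LP SNL arrays.

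Of 19 genes of vesicle endocytosis, 4 fell (21.1%) and 1 rose (5.26%) in HP, and 5 fell (26.3%) and 1 rose (5.26%) in LP. Of all genes, 6.61% fell and 7.02% rose in HP, and 6.79% fell and 7.66% rose in LP. Differences in this list ran from -0.67 to 1.46 in HP and from -0.71 to 1.90 in LP. Amphiphysin (Amph; -0.54 ± 0.12 and -0.71 ± 0.12), auxilin (Dnajc6; -0.49 ± 0.08 and -0.62 ± 0.08) and Sh3glb2 (-0.64 ± 0.10 and -0.43 ± 0.10) fell in both. Dnm1, the neuronal dynamin, fell in LP (-0.55 ± 0.14) and had -0.30 ± 0.14 in HP. Of 21 other vesicle proteins, 2 fell (9.52%) and 1 rose in HP and 4 fell (19.0%) in LP, with the proton pump subunit Atp6v1a (-0.52 ± 0.12 and -0.67 ± 0.12) and the glutamate transporter Slc17a7 (-0.64 ± 0.12 and -0.44 ± 0.12) lower in both.

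Of 8 granule processing genes, 1 fell (12.5%) and 1 rose (12.5%) in HP, and 2 fell (25%) and 1 rose (12.5%) in LP. The shares of all genes that fell and rose were 6.61% and 7.02% in HP and 6.79% and 7.66% in LP. Pcsk2 fell and Vgf rose in both lines. Pcsk2, the convertase that 7B2 escorts, fell by 1.64 ± 0.42 in HP (adjusted p = 0.029) and fell by 1.49 ± 0.42 in LP (adjusted p = 0.0393). Its SNL signals were 163.5, 53.3 and 48.5 in HP and 51.9, 91.4 and 110.7 in LP, all under the lowest sham signal of 191.1. Vgf encodes a granin-like granule protein that is induced by growth factors. Its signals were 1027.0, 640.5 and 820.0 after sham and 2089.4, 2229.0 and 2048.0 after SNL in HP, and 754.8, 712.6 and 650.9 against 2068.6, 1517.4 and 1812.1 in LP. It rose by 1.38 ± 0.17 (adjusted p = 0.000797) and 1.34 ± 0.17 (adjusted p = 0.000734), opposite in sign to all 5 granin and secretogranin members.

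**Figure D4:**
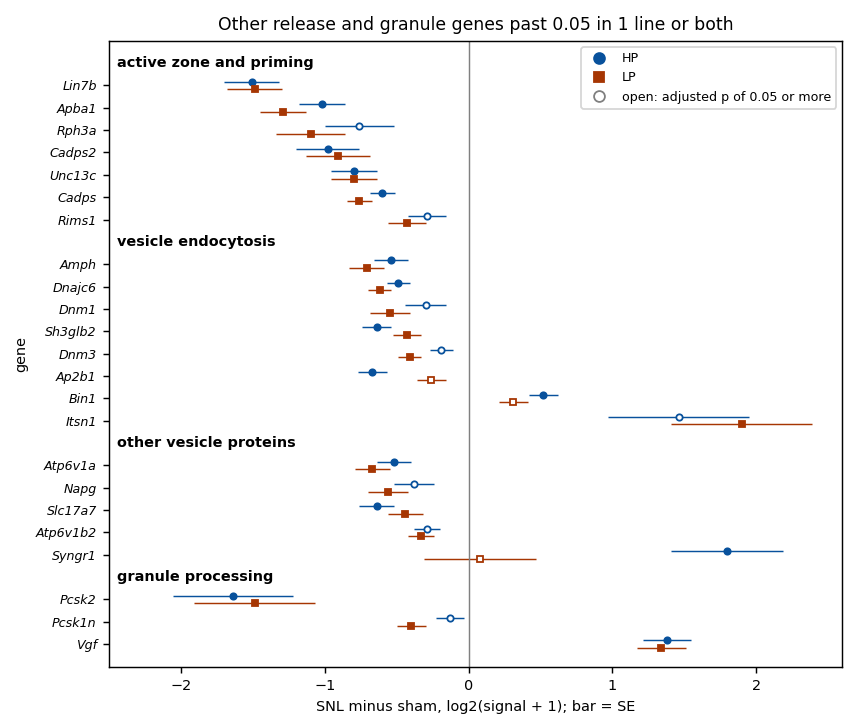
Difference in log2(signal + 1) between SNL and sham for genes of the release pathway outside the member families that were called in at least 1 line; points are limma estimates for HP and LP, bars are SE (n = 3 arrays per group), and open points mark an adjusted p of 0.05 or more. Active zone genes lie left of 0, and Vgf lies at 1.38 in HP and 1.34 in LP.

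Neuronal genes outside the release machinery were read beside these. Of 12 pan-neuronal markers, Rbfox3 and Elavl4 fell in HP (-1.05 ± 0.23 and -0.81 ± 0.16) and Rbfox3, Isl1 and Thy1 fell in LP (-1.26 ± 0.23, -0.67 ± 0.17 and -0.34 ± 0.07). Without HP SNL replicate 3 the HP count was 1. The shares of markers that fell were 16.7% in HP and 25% in LP, against 6.61% and 6.79% of all genes. Of the members, 15.6% fell in HP and 21.9% in LP. A share above that of all genes was thus seen in both lists, and whether the lists differ was not tested. In HP 11 of the 12 markers lay below 0, and in LP all 12 did. Map2 (-0.44 ± 0.21 in HP and -0.32 ± 0.21 in LP) and Eno2 (-0.26 ± 0.10 and -0.18 ± 0.10) were called in neither line. Nefl, Nefm, Nefh, Prph, Tubb3 and Uchl1 all differed by under 0.2 in both lines. The markers' median was -0.17 in HP and -0.19 in LP. Their summed signal was 60265.5 to 63794.4 on HP sham and 55176.5 to 59756.0 on HP SNL arrays, and 58110.9 to 63819.8 against 51574.8 to 56989.1 in LP, with none at 0. The members' summed signal was 68926.0 to 71266.2 against 58988.2 to 60913.0 in HP, and 64569.4 to 73418.0 against 54336.9 to 58220.6 in LP. Both sums were lower on every SNL array. A sum mainly follows its brightest genes, among the markers Nefm, Nefh and Nefl, so the sizes of the 2 falls cannot be compared. The part of a general fall in neuronal RNA in the members' fall was not tested. The adrenal and sympathetic markers Th, Dbh and Pnmt had summed signals of 239.2 to 412.2 over all arrays, and limma called 0 of the 3 in either line (0 in HP and 1 in LP at an unadjusted p under 0.05).

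A sign of RNA integrity also moved with ligation in HP. The beta-actin 3′ to 5′ ratio was 1.847, 1.483 and 1.772 on HP sham arrays and 1.237, 1.342 and 1.118 on HP SNL arrays, without overlap. The LP sham arrays had 1.877, 1.154 and 0.9931 and the LP SNL arrays 1.125, 1.113 and 1.124, which overlapped. With this ratio as a covariate, 4 members fell and 2 rose in HP (Syt4 and Stxbp2, the latter not called without the covariate), and 15 fell and 5 rose in LP. The HP calls of Rab3a, Rab3c, Scg2, Nsf and Syt4 held under that covariate, and those of 10 others were lost. Of these, Chga (-2.63), Sh3gl2 (-2.77), Sv2b (-0.44), Syt9 (-0.57), Syt17 (1.17), Snap23 (0.40), Stx4 (0.31) and Vamp5 (0.44) kept differences near those given above, and Syn1 (-0.28) and Vamp1 (-0.44) moved closer to 0. The part of RNA integrity in these results was not tested further. In a fit of only the arrays of one line, the calls of Sh3gl2, Stx4, Sv2b, Syt9 and Vamp5 were lost in HP and those of Scamp2, Scamp3, Scg5, Snap23, Stx4, Syn1, Syt3 and Vamp1 in LP, with adjusted p from 0.0612 to 0.16 and the same differences. The same fit called Syt3 lower in HP (adjusted p = 0.0208) and Sh3gl2 lower in LP (adjusted p = 0.00706).

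The second question of the design is whether the lines differ. For the 64 members, limma called 0 between LP and HP after sham (0.00961% of all genes were called) and 0 after SNL (0.173% of all genes, 0.0864% lower and 0.0864% higher), with 7 and 8 at an unadjusted p under 0.05 (9.76% and 10.7% of all genes). It called 0 for the interaction of line and ligation (0.0% of all genes), with 5 of 64 at an unadjusted p under 0.05 against 4.71% of all genes. The lines were thus not shown to differ in any member. Across the 64 members, the HP and LP differences had a Pearson r of 0.814, beside 0.602 over all 10411 genes; both sets of values come from arrays scaled together, and genes are not independent replicates. The sign was the same in both lines for 54 members, and 41 of 64 were more negative in LP, as were 5047 of all 10411 genes.

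**Figure D5:**
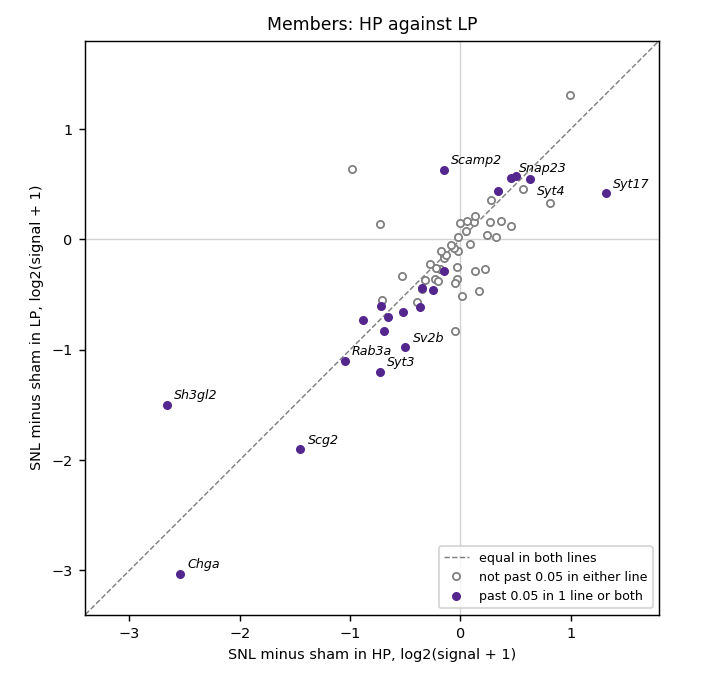
Difference in log2(signal + 1) between SNL and sham in HP (x axis) and in LP (y axis), 1 point per member (n = 64), filled where it was called in at least 1 line and open where it was called in neither; the dashed line marks equal differences. The points spread along that line (r = 0.814), with Chga, Scg2 and Sh3gl2 at the low end.

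No member passed a test between the lines in the fit used here. Scamp2 had the smallest unadjusted interaction p among the members, 0.00647, at a difference of 0.78 ± 0.23 (adjusted p = 0.988). Its signals were 730.7, 768.2 and 673.9 after sham and 591.3, 682.0 and 688.3 after SNL in HP, and 676.0, 423.8 and 508.0 against 737.6, 813.2 and 896.1 in LP. It was called higher in LP (0.63 ± 0.16, adjusted p = 0.0256) and had -0.15 ± 0.16 in HP. The LP call was lost without LP sham replicate 2 (adjusted p = 0.081) or 3 (0.0666) or LP SNL replicate 2 (0.0638) or 3 (0.0937). Sv2b had an interaction of -0.49 ± 0.15 (unadjusted p = 0.00766, adjusted p = 0.988), that is, the larger fall in LP.

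Stx17, a syntaxin of autophagosomes and a dim member, had signals of 36.3, 24.1 and 42.0 in HP SNL and 115.5, 87.6 and 102.5 in LP SNL. The groups did not overlap, and the LP minus HP difference of 1.58 ± 0.31 did not pass (adjusted p = 0.0937). With the replicate number as a block the adjusted p was 0.0355. Without overlap, 2 members were lower and 5 higher in LP than in HP after sham (against 7.4% and 8.19% of all genes), and 6 lower and 4 higher after SNL (against 8.33% and 9.1%).

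The 43 members called in neither line covered each role but SNARE disassembly. Their differences ran from -0.98 (Syt10) to 0.99 (Vamp8) in HP and from -0.83 (Syt7) to 1.31 (Vamp8) in LP. Several were dim: 8 of the 64 members lay below the 25th percentile of mean brightness, among them Syt10, Cplx2, Syn3 and Vamp8, whose SE was 0.47 to 1.01. Some lay below 0 without overlap in LP while they did not pass, such as Syt12 (-0.38 ± 0.15), Syt2 (-0.40 ± 0.14), Syt5 (-0.47 ± 0.16), Stx12 (-0.25 ± 0.09) and Stx7 (-0.36 ± 0.11). Syt2 is a fast calcium sensor, and Stx7 and Stx12 are endosomal syntaxins. Others lay above 0 without overlap and did not pass, such as Scamp4 (0.46 ± 0.17) and Stxbp2 (0.37 ± 0.13) in HP and Stxbp3 (0.17 ± 0.11) in LP. Differences of this size did not pass with 3 arrays per group, which does not show that these members were unaltered.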

How the data were processed

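Total RNA was hybridised to 12 Affymetrix arrays, 3 per group, with groups and replicate numbers taken from sample titles. The deposited table gives the authors' linear intensity for 15923 probe sets, from 0 to 13930.7. The submitters' processing notes name RMA with no version, but every array had a 2% trimmed mean of 500.1, the pattern of global scaling, so the steps behind the values are not settled here. Log2 values had been assumed when the tests were planned; as 109 values were below 1, log2(intensity + 1) was used without further normalization. Symbols came from the platform annotation, updated through RefSeq (GRCr8): 12783 probe sets had 1 symbol, 312 several and 2771 none, and 57 were controls.

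A single model of the 4 group means was fitted to all arrays (limma 3.58.1, statmod 1.5.0, R 4.3.3; 8 residual and 2.05 prior degrees of freedom), two-sided, with Benjamini-Hochberg adjustment over 10411 genes per contrast. The fit was tested on simulated data. The promoter windows came from RefSeq, GRCr8. The members and lists were chosen with earlier results of these data known. By the rule set for naming, any member may be named, and array values are given for members called in both lines or by a comparison of the lines and for the 5 largest changes called in 1 line; Snap25, Napa, Stx17 and the pathway genes with array values were chosen after their values were seen.

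Alternatives were quantile normalization, median centring, pseudocounts of 16 and 32, leaving out the dimmest 25% of genes, the replicate number as a block, trended and robust variance, only the arrays compared, the actin ratio as a covariate, the mean of the probe sets of each gene, the other probe sets, leaving out each array, and every symbol that starts with a family name (83 genes).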

Additional observations from a re-analysis of the deposited data

Results flagged for a closer look

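Scamp2, a carrier membrane protein of the recycling pathway, drew attention because its arrays fell on opposite sides of the sham means in the 2 lines: all 3 HP SNL arrays (591.3, 682.0 and 688.3) were below the HP sham mean, and all 3 LP SNL arrays (737.6, 813.2 and 896.1) were above the LP sham mean. The difference between the line responses was 0.78 ± 0.23 on the log2 scale, with an unadjusted limma p of 0.00647 and an adjusted p of 0.988. The HP difference of -0.15 ± 0.16 did not pass (adjusted p = 0.619), its groups overlapped, and its sign changed with the actin covariate (0.05), the mean of its probe sets (0.12) and the other probe set (0.39, with 0.24 in LP). A difference between the lines was therefore not shown.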

How the results depend on the processing

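Of 34 calls of members after ligation, 13 held in each of the 22 alternatives other than the other probe sets, 21 were lost in at least 1 of them, and 3 were lost in at least 11 of 22 (Scamp3 in LP, Syt9 and Sh3gl2 in HP). Members that fell in HP numbered 10 and became 4 with the actin covariate (6 to 10 leaving out 1 array); those that rose numbered 5 and became 3 with only the arrays compared, 2 with the actin covariate, 2 with the mean of probe sets and 8 with every symbol of a family name (2 to 6 leaving out 1 array). In LP the 14 that fell ranged from 11 to 16 leaving out 1 array, and the 5 that rose became 2 with only the arrays compared, 3 with the mean of probe sets and 8 with every symbol of a family name (4 to 5 leaving out 1 array). Pathway genes that fell in HP went from 12 to 6 with the actin covariate (9 to 13 leaving out 1 array), and those that rose ranged from 2 to 5. In LP the 18 that fell became 9 with only the arrays compared (9 to 16 leaving out 1 array), and the 2 that rose became 1 with only the arrays compared and 1 with the actin covariate (1 to 2 leaving out 1 array). Pan-neuronal markers that fell went from 2 to 0 in HP with the actin covariate (1 to 2 leaving out 1 array) and from 3 to 1 in LP with only the arrays compared (2 to 3). The members' HP median of -0.11 was -0.07 without the dimmest genes, -0.13 after quantile normalization, -0.14 after median centring, -0.13 with the actin covariate, -0.14 with the mean of probe sets and -0.09 with every symbol of a family name (-0.15 to -0.07 leaving out 1 array). The LP median of -0.23 was -0.11 with every symbol of a family name (-0.25 to -0.18 leaving out 1 array).

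Signs changed for Scamp2 in HP (0.05 with the actin covariate, 0.12 with the mean of probe sets, 0.39 with the other probe set), Sv2b in LP (0.18, other probe set), Syt17 in HP (-1.22, other probe set) and in LP (-0.18 with the mean, -0.77 with the other probe set) and Vamp1 (0.09 in HP and 0.13 in LP, other probe set). The cause was not tested. Arrays with the same replicate number showed no strong shared deviation (correlations from -0.158 to 0.0983). With so few arrays per group, this cannot show whether the samples were paired by number. With the replicate number as a block 4 of the 34 calls were lost (Scamp2 and Scamp3 in LP, Stx4 and Syt9 in HP). Under that block 1 member, Stx17, was called higher in LP than in HP after SNL. Median centring ended the call of Stx4 in HP and quantile normalization that of Scamp3 in LP. Normalization moved the median of all genes by under 0.1. Dim probe sets were the least precise.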
